A study of Mus musculus with 10 samples.

Results

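Ighm, the gene of the immunoglobulin mu heavy chain, and 8 further genes best known from B cells were examined in bulk RNA-seq libraries of Treg cells. The 9 genes are Ighm, Ighd, Igkc, Cd79a, Cd79b, Ms4a1, Cd22, Cd74 and Jchain, and all 9 are among the 55809 genes of the count tables. They were chosen from the read-out itself: Ighm was selected because it was abundant and lower in R26-TIR1(F74G) libraries while Igkc and Ms4a1 were near zero. The genotype difference of the 9 genes is therefore given as a description, with no test. The high level of Ighm and the low levels of Igkc and Ms4a1 entered that choice too and are likewise descriptions. Variable segment counts and the genes outside the 9 did not enter it.

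The Treg cells came from the spleen and lymph nodes of Foxp3-AID mice, whose own Foxp3 allele carries an auxin-inducible degron in the Foxp3 protein, a ZsGreen reporter and Cre. Foxp3-AID ROSA26-TIR1(F74G) mice, called R26-TIR1(F74G) here, also express a plant E3 ligase and mCherry once Cre has removed a stop cassette, so that the auxin analog 5-ph-IAA triggers degradation of the fusion protein. Foxp3-AID ROSA26-WT mice, called R26-WT here, have the fusion protein without the ligase. Both groups had received 5-ph-IAA over 14 days, and there were 4 R26-WT libraries (replicates 1 to 4) and 6 R26-TIR1(F74G) libraries (replicates 5 to 10). The column headers of the count tables name the mice as male. The study describes such degradation over 14 days in neonatal and in adult mice, and which age these libraries come from is not stated in the labels. Pooling of mice is not stated either, so that p-values measure the spread between libraries. The sort gate for these libraries is not stated. The study's general scheme enriches CD4+ T cells, gates CD4+TCRβ+ZsGreen+ cells and describes bulk RNA-seq samples as double sorted. It adds mCherry to the gate of TIR1-expressing cells, and if it was used here the gate and the genotype cannot be told apart.

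Totals ran from 24158699 to 54795718 assigned read pairs per library, with replicate 8 the lowest. The degradation acts on the protein, so the Foxp3 transcript does not check the labels. Foxp3 stood at 8930 ± 2366 normalized counts (SD, n = 4) in R26-WT and 9401 ± 3415 (SD, n = 6) in R26-TIR1(F74G). Among the 16363 genes that averaged 10 or more counts, DESeq2 called 284 at an adjusted p under 0.05, which is 1.74% of those tested. Of these, 229 were higher in R26-TIR1(F74G) (1.4%) and 55 lower (0.336%), and the median log2 fold change of all tested genes was 0.00063. edgeR called 61 genes, or 0.373%. Of the 9 genes, 7 passed the count filter, and Ms4a1 and Jchain did not.

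In B cells a functional mu heavy chain is made after V, D and J segments have been joined upstream of the Ighm exons. It pairs with a kappa or lambda light chain, of which Igkc is the kappa constant gene, and reaches the surface with the signalling pair Cd79a and Cd79b. Ighd is transcribed from the same locus and spliced from the same precursor as Ighm. Ms4a1 encodes CD20, Cd22 an inhibitory lectin of B cells, Jchain the chain that joins secreted IgM and IgA, and Cd74 the invariant chain of MHC class II. Constant region exons can also be transcribed without a joined variable segment, as sterile transcripts that start near the intronic enhancer between the J segments and Ighm. In T cells the rearranged loci are those of the T cell receptor, with Trac, Trbc1 and Trbc2 as constant genes.

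Ighm was picked from these libraries as an abundant transcript, and its levels are given to show how abundant. Its level per length was 520 to 905 TPM, which are counts per kilobase of exon scaled to the same sum in every library, with a median of 607 over the 10 libraries, and it ranked 207 of 55809 genes by median TPM. The T cell receptor signalling gene Cd3e had a median of 774 TPM and the alpha chain gene Trac 5414 TPM. The other 8 genes spread over a wide range below Ighm. Cd74 had a median of 101 TPM (rank 2007), Cd79b 38.9 TPM (rank 4597) and Cd79a 9.45 TPM (rank 8851). Igkc, Ighd and Cd22 had medians of 2.18, 0.949 and 0.388 TPM, Jchain 0.175 TPM, and Ms4a1 was at 0 TPM in 6 of the 10 libraries.

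The order of the medians was thus Ighm, Cd74, Cd79b, Cd79a, Igkc, Ighd, Cd22, Jchain and Ms4a1. Down to Cd79a, the ranges of neighbours over all libraries did not overlap: the lowest Cd74 value, 86.7 TPM, was above the highest Cd79b value, 47.0 TPM, and the lowest Cd79b value, 28.2 TPM, was above the highest Cd79a value, 11.5 TPM. From Igkc (0.268 to 6.63 TPM) to Ighd (0.174 to 1.52 TPM), Cd22 (0.0639 to 3.55 TPM) and Jchain (0 to 0.661 TPM) the ranges overlapped, and these neighbours did not differ beyond the spread between libraries. A count of 0 allows up to 3 counts, which is 0.0547 to 0.124 CPM (counts scaled to the same sum without the length) at these depths, for counting error only.

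**Figure D1:**
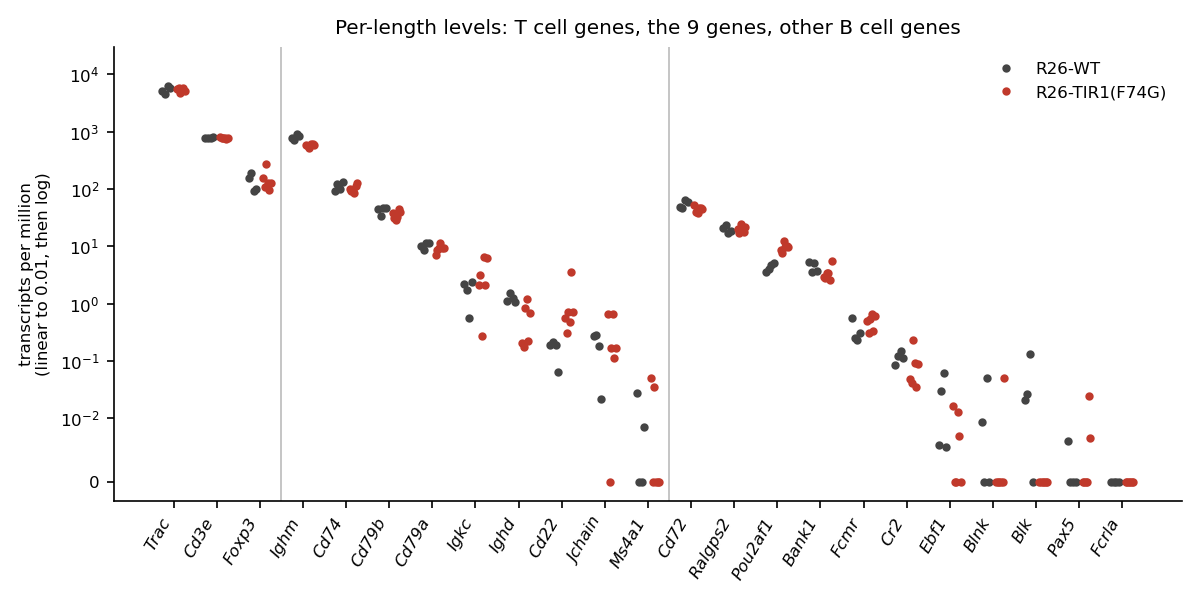
Level of each gene in TPM (y axis, linear to 0.01 and logarithmic above) in each of the 4 R26-WT (dark) and 6 R26-TIR1(F74G) (red) libraries, with 3 T cell genes at the left, the 9 genes in the middle and 11 other B cell genes at the right. Ighm (520 to 905 TPM) stands near Cd3e, while Igkc, Ighd, Cd22, Jchain and Ms4a1 are below 7 TPM in every library and Fcrla is at 0 in all 10.

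The levels of the heavy chain and of the light chain gene did not move in proportion. Igkc had 21, 13, 6 and 24 counts in the R26-WT libraries, in which Ighm had 25830, 18521, 34012 and 28921. In R26-TIR1(F74G) Igkc had from 2 through a median of 20.5 to 55 counts, and Ighm from 9138 through 14911 to 18238. Counts per kilobase of Ighm exceeded those of Igkc 92.1-fold in the library with the lowest ratio and 1942-fold in the one with the highest, with a median of 311. A large ratio was fixed by the choice of the genes, which used these levels. No B cell library was analysed here, so the same ratio in B cells was not measured. The kappa counts were themselves unevenly spread, highest in replicates 8 and 10 at 49.5 and 47.7 normalized counts and lowest in replicate 7 at 1.85.

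The lambda constant genes Iglc1, Iglc2 and Iglc3 had at most 4 counts each in any library. Heavy chain constant genes of the switched isotypes were equally scarce. Igha reached 17 counts, Ighg3 10, Ighg2b 9, Ighg1 8, Ighe 7 and Ighg2c 6 at most. None of these 9 genes passed the filter on mean count.

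Variable segments gave a second view of the Ighm reads. Over the 183 Ighv genes, of which 29 had any count, the R26-WT libraries held 18, 19, 29 and 25 counts, and the R26-TIR1(F74G) libraries held from 8 through 15 to 29. Ighv counts were thus 0.0498% to 0.159% of Ighv and Ighm counts together, with a median of 0.101%. In the library at the low end, replicate 6, the exact (Clopper-Pearson) 95% interval was 0.0215% to 0.0981%, and in the one at the high end, replicate 10, it was 0.106% to 0.228%. These intervals cover counting error only, since PCR copies carry no molecular identifiers.

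T cell receptor segments in the same libraries, counted the same way, served as the reference. Trav counts were 14.5% to 15.3% of Trav and Trac together (median 14.9%), and Trbv counts were 31.8% to 33.8% of Trbv, Trbc1 and Trbc2 together (median 32.3%). The lowest Trav share was above the highest Ighv share in every library, and the medians differed by over 2 orders of magnitude on this scale. Scaled per kilobase, the medians were 0.00294% for Ighv, 0.336% for Trav and 5.20% for Trbv. This scale divides by the summed length of all annotated V genes, 183 Ighv, 130 Trav and 35 Trbv, with or without counts. It therefore falls with the number of annotated V genes and does not give the coverage of a joined transcript. Trav and Trbv shares varied little between libraries, and read pairs that touched a variable and a constant gene at once had been dropped in all of these loci alike.

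For the kappa locus the shares ran from 32.4% to 92.6%, on 12 to 38 Igkv counts and 2 to 55 Igkc counts. At so few counts the interval of a single library was wide, for example 18.0% to 49.8% in replicate 6. The 3 Iglv genes had 0 to 2 counts per library.

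**Figure D2:**
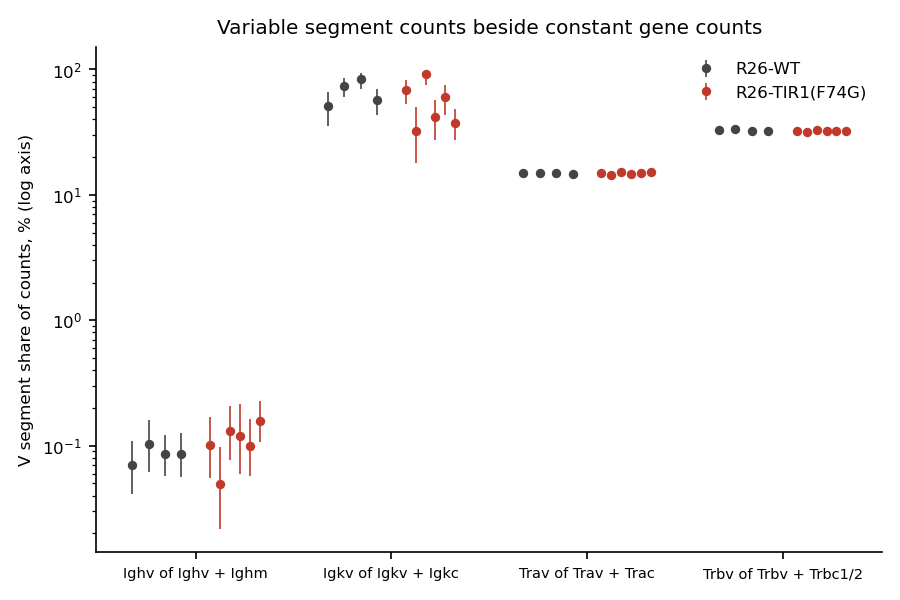
Share of variable segment counts in the sum of variable and constant counts (y axis, %, logarithmic) for the heavy chain, kappa, T cell receptor alpha and T cell receptor beta loci in each library; bars are exact 95% intervals for counting error. Ighv shares lie at or below 0.159% in all 10 libraries, and Trav and Trbv shares at or above 14.5%.

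Among the annotated genes around Ighm, counts stood on the constant exons and on little else. Reads outside annotated exons were not counted, and pairs that touched a J segment and another gene were dropped. Transcription elsewhere in the locus therefore cannot be seen in these counts. In the build of the files, GRCm39, Ighm lies on the minus strand of chromosome 12 at 113382178 to 113386350. Ighd, at 113370224 to 113379944 and downstream of it, had 5 to 47 counts per library, and Ighm exceeded it 466-fold to 3235-fold per kilobase. Of the J segments, Ighj1 had 5 to 20 counts, while Ighj2, Ighj3 and Ighj4 had at most 7, 4 and 6. The D segment nearest to them, Ighd4-1, had 0 to 3. The J segments are shown because a joined heavy chain transcript must carry 1 of them; the capitals mark TGGGG, whose first 3 bases encode the conserved tryptophan. They were read from the GRCm39 genome on the minus strand, 5′ to 3′, at the positions of the GENCODE M30 annotation used for counting. For Ighj2 an annotated entry of 48 bases is shown, while the deposited counts cover 100 bases, 113393088 to 113393187.

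Ighj1 (chr12:113393401-113393453): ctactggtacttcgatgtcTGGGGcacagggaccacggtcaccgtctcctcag
Ighj2 (chr12:113393088-113393135): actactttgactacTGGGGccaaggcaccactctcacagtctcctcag
Ighj3 (chr12:113392705-113392752): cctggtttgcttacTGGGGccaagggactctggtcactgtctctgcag
Ighj4 (chr12:113392134-113392187): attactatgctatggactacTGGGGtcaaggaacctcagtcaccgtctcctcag

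The 5783 bases between Ighj4 and Ighm hold the lncRNA ENSMUSG00000120754 at 113389913 to 113390546 on the same strand and 4 short annotated genes with at most 18 counts each. The lncRNA had 55 to 233 counts per library. This lncRNA is singled out after its values were seen. Its level per length was 28.7 to 67.5 times lower than that of Ighm. The counting did not use strand, so its reads, those of an unspliced Ighm precursor and those of any antisense transcript cannot be told apart.

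The stretch of that interval shown next lies upstream of the lncRNA and contains the only octamer of the interval, the motif read by the products of Pou2f1 and Pou2f2 with the coactivator encoded by Pou2af1. The capitals mark that octamer, ATTTGCAT, and the E-boxes CAGCTG and CACCTG, the letters read by E proteins such as those of Tcf3 and Tcf12. Motifs were searched on both strands and do not overlap here.

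Interval between Ighj4 and Ighm (chr12:113390942-113391241, GRCm39, minus strand): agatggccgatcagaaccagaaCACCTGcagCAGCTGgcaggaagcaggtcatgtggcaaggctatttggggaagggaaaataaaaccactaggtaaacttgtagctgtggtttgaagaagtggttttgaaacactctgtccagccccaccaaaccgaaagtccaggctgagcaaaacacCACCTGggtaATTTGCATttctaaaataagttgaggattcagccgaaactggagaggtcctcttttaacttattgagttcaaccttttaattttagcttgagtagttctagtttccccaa

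The octamer starts 4701 bases upstream of the 5′ end of Ighm and 505 bases upstream of the annotated start of the lncRNA. Among 32851 RefSeq promoters of the same length, 300 bases, 1.74% held the octamer, 16.3% CAGCTG and 20.2% CACCTG. The window was placed around the octamer, so these shares are background for the motifs and no comparison with it. Binding was not measured here.

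**Figure D3:**
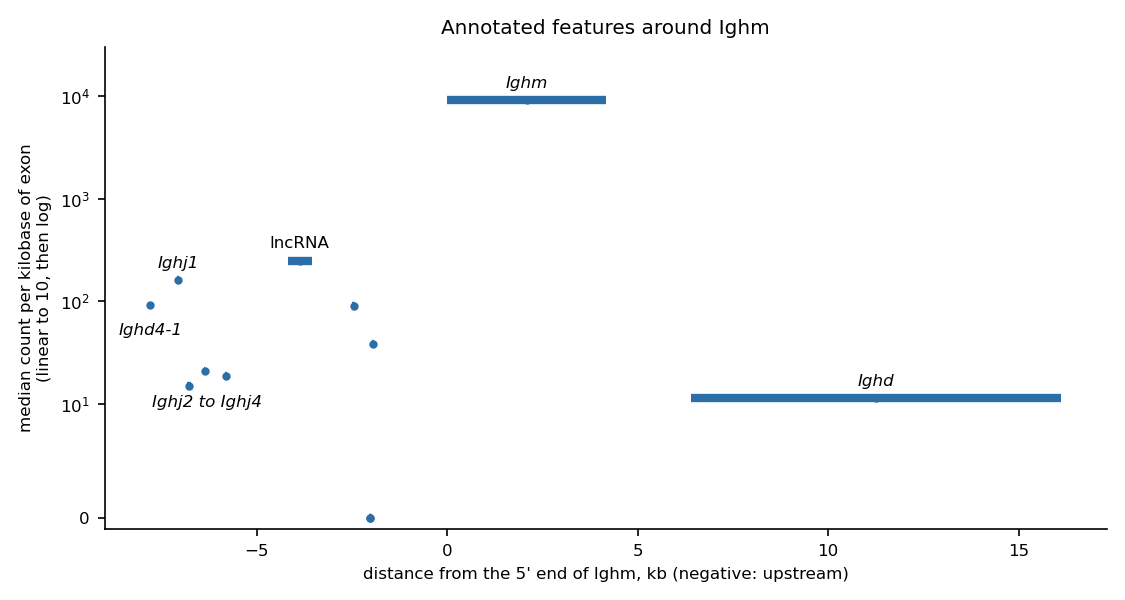
Median count per kilobase of exon over the 10 libraries (y axis, linear to 10 and logarithmic above) for each annotated gene around Ighm, against distance from the 5′ end of Ighm in kilobases (x axis, negative values upstream); bars span each gene and points mark its middle. Ighm stands at 9092 counts per kilobase, the lncRNA at 248 and Ighd at 11.3.

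The genotypes differed in Ighm as the choice of the gene had fixed. Normalized counts, which are counts divided by the DESeq2 size factor of the library, were 20567, 18222, 27681 and 24456 in R26-WT and ran from 12746 through a median of 15998 to 17332 in R26-TIR1(F74G). The groups did not overlap, which held in this direction for 0.801% of all tested genes. The log2 fold change was -0.54 ± 0.14 (SE), and it lay between -0.63 and -0.43 when each library was left out in turn. In bulk samples fewer cells of a type and less RNA per cell cannot be told apart.

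Beside Trac, counts per kilobase of Ighm were 0.140 to 0.153 in R26-WT and 0.0971 to 0.116 in R26-TIR1(F74G), without overlap. Trac had a log2 fold change of -0.09, so this ratio carries the difference on which Ighm was chosen and is no second result. The lncRNA ENSMUSG00000120754 had 186, 210, 176 and 152 normalized counts in R26-WT and 82.2 to 149 in R26-TIR1(F74G), a log2 fold change of -0.62 ± 0.21 (SE). The ratio of Ighm to the lncRNA overlapped between genotypes, at 29.2 to 54.0 per kilobase in R26-WT and 28.7 to 67.5 in R26-TIR1(F74G).

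Ighd was low in both groups. Its normalized counts were 29.5, 39.4, 38.2 and 32.1 in R26-WT and 5.13 to 31.8 in R26-TIR1(F74G), with a median of 12.4. The highest R26-TIR1(F74G) library, replicate 8, reached into the R26-WT range, and the log2 fold change was -1.29 ± 0.48 (SE). Igkc went the other way in its estimate, at 16.7, 12.8, 4.88 and 20.3 normalized counts in R26-WT against 1.85 to 49.5 in R26-TIR1(F74G), and its log2 fold change of 0.93 ± 0.64 (SE) came from overlapping groups. Jchain had 0 to 21 counts and Ms4a1 0 to 4, with overlap in both.

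The genes of the signalling pair overlapped between genotypes. Cd79b had 891, 661, 1091 and 1058 normalized counts in R26-WT and 525 through 731 to 972 in R26-TIR1(F74G), with a log2 fold change of -0.33 ± 0.20 (SE). Cd79a had 204, 171, 271 and 259 in R26-WT and 145 through 194 to 233 in R26-TIR1(F74G), with a log2 fold change of -0.24 ± 0.18 (SE). Per kilobase, Cd79b exceeded Cd79a 2.85-fold to 5.39-fold, and Ighm exceeded Cd79b 13.5-fold to 20.9-fold.

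Cd22 was the member whose values were higher in every R26-TIR1(F74G) library than in any R26-WT library. It had 13.5, 14.8, 15.5 and 5.07 normalized counts in R26-WT and from 23.6 through a median of 43.1 to 273 in R26-TIR1(F74G). These groups did not overlap either, which held in this direction for 1.57% of all tested genes. The log2 fold change of 2.68 ± 0.63 (SE) fell to 1.69 without replicate 9, the library at 273. In that library the mean log2 level of a list of 13 activated Treg genes was 9.72, against 8.25 to 8.88 in the other R26-TIR1(F74G) libraries, and the part of this in its Cd22 value was not tested. Of the exon bases of Cd22, 9.50% also belong to Gm29439, and pairs on both were not counted.

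Cd74 was abundant in each group, at 2165, 2777, 2772 and 3501 normalized counts in R26-WT and 2045 to 3037 in R26-TIR1(F74G), with a log2 fold change of -0.18 ± 0.17 (SE). The groups overlapped over most of their range.

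**Figure D4:**
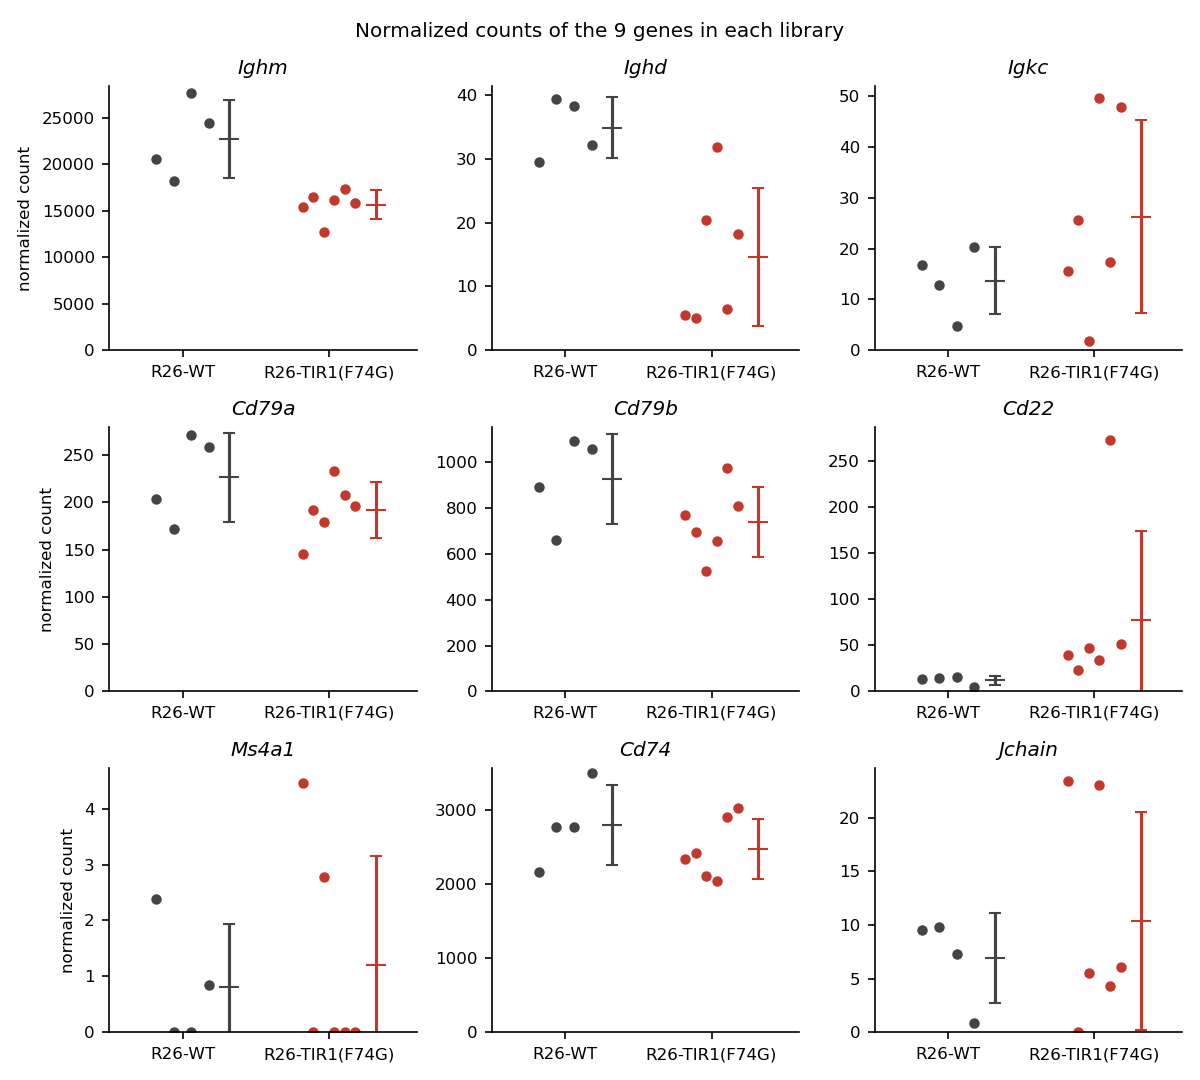
Normalized count (y axis, linear from 0, own scale in each panel) of each of the 9 genes in the 4 R26-WT and 6 R26-TIR1(F74G) libraries (points), with the mean and SD beside them; the lower SD bar of a few low genes is cut at 0. Ighm (18222 to 27681 against 12746 to 17332) and Cd22 are the panels in which the groups do not overlap.

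Markers of B cells were checked as a whole list. Of 15 B cell identity genes, 10 had under 30 counts in every library, and Fcrla was at 0 in all 10 libraries. Pax5, the factor that holds B cell identity, had at most 3 counts, Blnk at most 6, Blk at most 7, Spib at most 7 and Ebf1 at most 12. Other low genes of the list had more, Fcmr up to 17 and Cr2 up to 26. Vpreb3 had 42, 10, 38 and 7 counts in the R26-WT libraries and 0 to 11 in R26-TIR1(F74G). The summed normalized count of the list was 6557 to 7717 in R26-WT and 5950 to 6921 in R26-TIR1(F74G). Ralgps2 and Cd72 made up 52.6% and 36.3% of this sum, Bank1 6.25% and Pou2af1 4.14%. A sum of 10 near-zero B and plasma cell genes, picked from their values, was 9, 5, 25 and 3 counts in the R26-WT libraries, whose Ighm counts were 25830, 18521, 34012 and 28921. This sum leaves out genes of the list with more counts, such as Vpreb3, Cr2 and Fcmr. In replicates 5 to 10 of R26-TIR1(F74G) it was 12, 7, 3, 1, 4 and 6, beside 13796, 16058, 13767, 9138, 16026 and 18238 Ighm counts. In these raw counts R26-WT replicate 3 was highest and replicate 8 lowest in both, and the order of the libraries between them differed. Replicate 8 had the lowest total. In normalized counts Ighm was lowest in replicate 7, at 12746, and stood at 16163 in replicate 8. The part of the summed genes in the Ighm difference was not tested.

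By genotype, 7 of the 15 identity genes were tested, 1 was higher and none lower, against 1.4% and 0.336% of all genes, and the median log2 fold change was -0.36. The gene that rose was Pou2af1, the octamer coactivator. It had 127, 140, 197 and 201 normalized counts in R26-WT and 299 through 352 to 410 in R26-TIR1(F74G). The groups did not overlap, and the difference was 1.08 ± 0.18 (SE) on the log2 scale (adjusted p = 4.92e-07 in DESeq2 and 0.0204 in edgeR). Cd72 (log2 fold change -0.36), Bank1 (-0.42), Ralgps2 (-0.03), Vpreb3 (-1.48), Cr2 (-0.50) and Fcmr (0.45) did not pass.

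Plasma cell genes were split. Mzb1 and Tnfrsf17 were at 0 in all libraries and Sdc1 had at most 13 counts. Xbp1, Txndc5 and Irf4, which T cells also express, had medians of 204, 69.9 and 16.4 TPM, and Prdm1 5.67 TPM. None of the 7 tested genes of this list was called, by DESeq2 or by edgeR, where 1.74% and 0.373% of all genes were, and their median log2 fold change was 0.07.

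Of 16 genes of B cell receptor signalling, 14 were tested and 1 was higher in R26-TIR1(F74G), against 1.4% of all genes, and none lower. This was Pik3ap1, an adaptor that links receptors to phosphoinositide 3-kinase, at 17.3 ± 3.19 normalized counts (SD, n = 4) in R26-WT and 64.1 ± 37.3 (SD, n = 6) in R26-TIR1(F74G). The difference was 1.89 ± 0.45 (SE) on the log2 scale. DESeq2 called it (adjusted p = 0.00288) and edgeR did not (adjusted p = 0.143). The most abundant genes of the list, Pik3cd, Ptpn6, Vav1 and Prkcb, serve T cell receptor signalling as well, and their log2 fold changes were 0.25, 0.03, 0.09 and 0.23 without a call. The median of the list was 0.10. Of the kinases next to the receptor, Lyn had at most 14 counts, Btk 13 to 64 and Syk 95 to 734. The log2 fold changes of Btk and Syk were -0.62 and 0.90 without a call.

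In the MHC class II list, to which Cd74 is functionally tied, 4 of 9 tested genes were higher in R26-TIR1(F74G) and none lower, against 1.4% and 0.336% of all genes, with a median log2 fold change of 0.25. They belong to the peptide-loading part. H2-DMa, a chain of the peptide exchange factor, rose from 4856 ± 1365 (SD, n = 4) to 9878 ± 1922 normalized counts (SD, n = 6). This was 1.02 ± 0.20 (SE) on the log2 scale, with a DESeq2 adjusted p of 0.000118. H2-DMb1 (log2 fold change 1.53, DESeq2 adjusted p = 1.21e-05) and H2-DMb2 (1.64, adjusted p = 0.000176) encode its partner chains. H2-Oa, a chain of the modulator of H2-DM, rose by 0.57 on the log2 scale (DESeq2 adjusted p = 0.033). In edgeR 1 of the 4 was called, H2-DMb1 (adjusted p = 0.0446).

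The classical class II chains were low throughout. H2-Aa, H2-Ab1 and H2-Eb1 had at most 72, 109 and 68 counts per library, and their log2 fold changes were 0.04, 0.22 and -0.17 without a call. H2-Ob, the other chain of the modulator, had a log2 fold change of -0.19 and did not pass. H2-DMa and Cd74 thus stood at medians of 164 and 101 TPM in libraries in which H2-Aa had 0.729 TPM.

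Myeloid and dendritic cell markers were mostly absent. Of 16 genes, 13 had under 30 counts in every library, and Itgax, Clec9a and S100a9 were at 0 in all 10. Cst3, a widely expressed gene, carried the list at 166 TPM. None of the 5 tested genes was called, against 1.74% of all genes. All 12 T cell and Treg defining genes were detected and tested, none was called by DESeq2 or edgeR, against 1.74% and 0.373% of all genes, and their median log2 fold change was -0.13. Cd4, Il2ra, Ikzf2 and Ctla4 had medians of 483, 194, 72.6 and 256 TPM.

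Transcription factors known from heavy chain enhancer and octamer studies, among them E proteins and their inhibitors, octamer factors and Ets1, were taken as a further list. All 13 were tested, and 1 was higher and 1 lower, against 1.4% and 0.336% of all genes. Pou2f2 fell by 0.41 on the log2 scale (DESeq2 adjusted p = 0.0229, edgeR adjusted p = 0.151), from 4019 ± 179 (SD, n = 4) to 3018 ± 349 normalized counts (SD, n = 6). Id2, an inhibitor of E proteins, rose by 0.92 (DESeq2 adjusted p = 3.71e-05, edgeR adjusted p = 0.039). Its relative Id3 had a log2 fold change of -0.62 and did not pass (DESeq2 adjusted p = 0.212). Pou2f1, Tcf3, Tcf12 and Ets1 were not called, at -0.17, 0.11, 0.13 and 0.10, and the median of the list was 0.08.

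Genes of the resting and activated Treg states were taken as a further pair of lists. Of 10 resting Treg genes, 2 were higher, Tcf7 by 0.43 and Bcl2 by 0.37 on the log2 scale (DESeq2 adjusted p = 0.0257 and 0.0431), and none lower, against 1.4% and 0.336% of all genes, with a median of -0.01. Of 13 activated Treg genes, Tigit and Ccr2 were higher, by 1.73 and 2.33 (DESeq2 adjusted p = 0.0102 and 0.0346), and Tnfrsf9 fell by 0.49 (DESeq2 adjusted p = 0.000565), against the same shares of all genes, with a median of 0.33. edgeR called none of these 5 genes, with adjusted p from 0.051 for Tnfrsf9 to 0.245 for Tigit.

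Within the 6 R26-TIR1(F74G) libraries, log2 Ighm was set against 5 measures. Against Igkc, Pearson's r was 0.80 (exact permutation p = 0.106, adjusted p over the 5 relations = 0.264) and Spearman's rho 0.49 (exact permutation p = 0.356, adjusted p = 0.622). Without the 2 libraries farthest from the median of Igkc, replicates 7 and 8, r was -0.19, so that the relation rests on them. Against the mean of the resting Treg genes r was -0.68 (exact permutation p = 0.106, adjusted p = 0.264) and rho -0.37 (exact permutation p = 0.497, adjusted p = 0.622), with r of -0.54 without replicates 7 and 10. Against the summed B cell identity, MHC class II and mean activated Treg lists r was 0.09, 0.34 and 0.40 (exact permutation p = 0.812, 0.515 and 0.336) and rho -0.14, 0.49 and 0.43 (exact permutation p = 0.803, 0.356 and 0.419). Without the 2 libraries farthest from the median of each list these r were 0.77, 0.39 and -0.09, so that the first and the last rest on which libraries enter. None of the 5 relations passed after adjustment, the smallest adjusted p being 0.264. In R26-WT, 4 libraries were too few for such a test.

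The genes most like Ighm over all 10 libraries, among 12617 genes with a mean normalized count of at least 50, were Hopx (Pearson's r of log2 values 0.98), Arl5c (0.98), Arhgap9 (0.97), Gm45778 (0.97) and Il10rb (0.96). These values share the genotype difference and the libraries, and no test was made. Their log2 fold changes between genotypes, from -0.68 for Gm45778 to -0.15 for Arhgap9, are part of what made them alike, and their calls support nothing here. With the group means subtracted, the 5 nearest were Prkag1, Stoml2, Smim30, Trbj2-1 and Smim7, with r from 0.98 to 0.99.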

How the data were processed

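The authors deposited 1 table of raw counts per library, holding read pairs per gene of the GENCODE M30 annotation on GRCm39. Per the file headers featureCounts 2.1.1 counted primary, properly paired alignments with a mapping quality of at least 30, without strand, and pairs overlapping several genes were dropped. The submitters' processing notes name Bowtie2 and the study's methods STAR, so the aligner was not settled. Libraries were amplified from low input without molecular identifiers.

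Groups followed the genotype label. DESeq2 1.42.0 was run on genes averaging 10 or more counts, with genotype as the sole term and Benjamini-Hochberg adjustment at 0.05. edgeR 4.0.16 (quasi-likelihood test), limma 3.58.1 (voom), TMM size factors, no filter and leaving out each library were the alternatives. TPM used the exon length of the deposited tables. Likeness and relations used log2(normalized count + 1). Scripts were tested on simulated data. Members and gene lists were chosen with earlier results of these data known. Named genes were the 9, the immunoglobulin constant genes, in each other list the called genes and the 4 with the highest mean normalized count, the genes most like Ighm, and Foxp3; low defining markers, locus features and list members named beyond these were chosen after their values were seen. Sequences came from GRCm39 and RefSeq promoters (GRCm38.p6). The B cell identity list holds 1 gene that is counted but not reported here.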

Additional observations from a re-analysis of the deposited data

Results flagged for a closer look

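Of 34 sets of values within a genotype, 2 held a library far from the others, where chance gives about 1.7. Cd22 stood at 273 normalized counts in R26-TIR1(F74G) replicate 9, and the nearest library of that genotype was at 51.2. Foxp3 stood at 16059 normalized counts in R26-TIR1(F74G) replicate 7, and the nearest was at 9851.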

How the results depend on the processing

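The log2 fold changes of the 7 tested members kept their sign in all alternatives, and none moved by more than the spread between libraries. Leaving out each library gave -0.63 to -0.43 for Ighm and 1.69 to 2.86 for Cd22, whose lowest value was the one without replicate 9. The calls over all genes, 284 with DESeq2, were 61 with edgeR and 80 with limma voom, and 187 to 346 when a library was left out, the lowest without R26-WT replicate 4. With edgeR and with limma voom alike, calls fell from 1 to 0 in B cell receptor signalling, from 4 to 1 in MHC class II, from 2 to 0 in the resting and from 3 to 0 in the activated Treg genes, and from 2 to 1 in the enhancer and octamer factors. The resting Treg calls were also 1 with TMM size factors and 1 without the filter. Leaving out a library gave 0 to 2 resting, 1 to 3 activated and 1 to 3 enhancer and octamer factor calls. Per kilobase, the median segment shares were 0.00294% (Ighv), 1.33% (Igkv), 0.336% (Trav) and 5.20% (Trbv), and with D and J segments counted too 0.174% (Ighv), 24.6% (Trav) and 40.6% (Trbv). The shift per kilobase follows from dividing by the length of all annotated V genes, and D and J segments add to the counts. The cause of the other shifts was not tested. No paired analysis was made, because the labels do not say which mice were littermates or processed together. The 9 other constant genes stayed under the count filter. Without it DESeq2 called 0 of the 9, and 0 had an unadjusted p under 0.05.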

Other observations

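Farther downstream in the heavy chain locus, between Ighd and Ighg3, Gm9134 had 105 to 257 counts per library in a region where Gm5190, Gm9136 and Gm17421 were at 0 in all 10. Gm9134 was singled out after its values were seen. It stood at 190 ± 28.2 normalized counts (SD, n = 4) in R26-WT and 193 ± 34.5 (SD, n = 6) in R26-TIR1(F74G). The difference was 0.03 ± 0.19 (SE) on the log2 scale, and DESeq2 did not call it (adjusted p = 1).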
